A study of Mus musculus with 11 samples.

Results

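Genes of fatty acid oxidation and of the peroxisome were followed in isolated small intestinal villi of Villin-Gremlin mice and wild type mice. The members were genes whose array symbol begins with Acad, Acox, Acot or Pex and a digit, joined with 22 genes listed by name. Of 61 such genes with a named probe, 56 were measured, out of 8234 named genes measured in all. A gene was measured when a probe had a detection p under 0.01 on at least 5 of the 11 arrays, and its value is that of the kept probe with the highest mean. The probes of Acot3, Acot5, Acoxl, Cpt1a and Pex5l were above background on 0 arrays, so these 5 members have no fold change. Cpt1a, the usual gate of long-chain fatty acids into mitochondria, is therefore not described. Both groups were C57Bl/6J mice aged 5 months, with 5 Villin-Gremlin arrays and 6 wild type arrays. Villin-Gremlin mice carry a Gremlin transgene driven by the Villin promoter, which is active in intestinal epithelium. Gremlin is secreted and blocks bone morphogenetic proteins (BMPs). The comparison asks how villus expression differs under this BMP antagonist. The labels do not say whether each array came from its own animal, so the spread that enters the p-values may be technical.

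Fatty acids are shortened by beta-oxidation in mitochondria and in peroxisomes. In mitochondria, carnitine carries long chains across the inner membrane, acyl-CoA dehydrogenases pass electrons to the electron transfer flavoprotein, and the trifunctional protein and thiolases complete each turn. Peroxisomes use oxidases in place of dehydrogenases and handle very long, branched and dicarboxylic chains, as well as bile acid intermediates. Their membrane and enzymes are assembled by the peroxins, encoded by the Pex genes. The nuclear receptor PPAR alpha induces genes of both routes, and villus enterocytes, which absorb dietary fat, express many of them.

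Median raw signal was 157 to 207 per array, and 13536 to 14808 of 45281 probes were above background. Grem1 read 13.77 to 14.08 (normalized log2 signal) on the Villin-Gremlin arrays and 4.98 to 8.99 on the wild type arrays. Every Villin-Gremlin array (5 of 5) gave a Grem1 signal past the detection limit, while 2 of 6 did among wild type arrays, and the groups did not overlap. On the second principal component, array 5 of the Villin-Gremlin group and array 1 of the wild type group stood away from the rest. Y-linked genes were above background on 1 array of each group. Where sex was used as a covariate, it was read from these genes and not from a label. Of 12 enterocyte markers, 10 were measured, while Fabp1 and Fabp2 were not above background on any array; 6 fell and 0 rose, with a summed signal of 168305 to 194368 in Villin-Gremlin villi and 232656 to 264365 in wild type villi. Of 9 measured T cell markers 8 fell, with a summed signal of 5642 to 7734 in Villin-Gremlin villi and 12091 to 18785 in wild type villi. Cd8b1, the brightest of the 9 in both groups, did not change (-0.02, limma adjusted p = 0.909). Of 4 measured crypt and cycling markers 3 rose, the cell cycle genes Top2a, Cdk1 and Bub1b. The crypt gene Olfm4 did not change (-0.01, limma adjusted p = 0.991), and Lgr5 was not above background on any array. Sums over the 4 overlapped, at 582 to 1554 in Villin-Gremlin villi and 342 to 972 in wild type villi. Of 3 macrophage and dendritic cell markers 2 fell, with sums of 289 to 659 in Villin-Gremlin villi and 1383 to 2530 in wild type villi. Smooth muscle markers (0 of 3 changed) summed to 105 to 1068 in Villin-Gremlin villi and 270 to 7351 in wild type villi, and stromal markers (0 of 1 measured, Dcn) to 49.3 to 332 in Villin-Gremlin villi and 122 to 1751 in wild type villi. Of the adipocyte markers Adipoq, Plin1 and Fabp4 were not above background on any array. Cidec, which enterocytes also express, was the only one measured and fell. Its signal was 1838 to 3280 in Villin-Gremlin villi and 2779 to 6230 in wild type villi. The part of the marker lists that changed in the results for the members was not tested. In whole villi, fewer cells of a type and less RNA per cell cannot be told apart.

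Of the 56 members, 17 changed at an adjusted p under 0.05 (limma, Benjamini-Hochberg over all genes), 9 higher and 8 lower in Villin-Gremlin villi. That is 30.4% of the members, beside 33.9% of all genes tested, of which 17.9% were higher and 16% lower. The share of changed members was thus close to the background, and the median change of the members was 0.06 (log2) against -0.000145 for all genes. Changes of at least 2-fold were made by 6 members, Acot12, Pdk4, Acox2, Acot1, Acadl and Acaa2; the background for such changes is 10.1%. The groups did not overlap for 10 members, beside 20.5% of all genes. With median scaling in place of quantile normalization, the split was 5 higher and 8 lower (all genes, 919 higher and 1217 lower). Without Villin-Gremlin 5 and wild type 1 it was 7 higher and 9 lower.

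**Figure D1:**
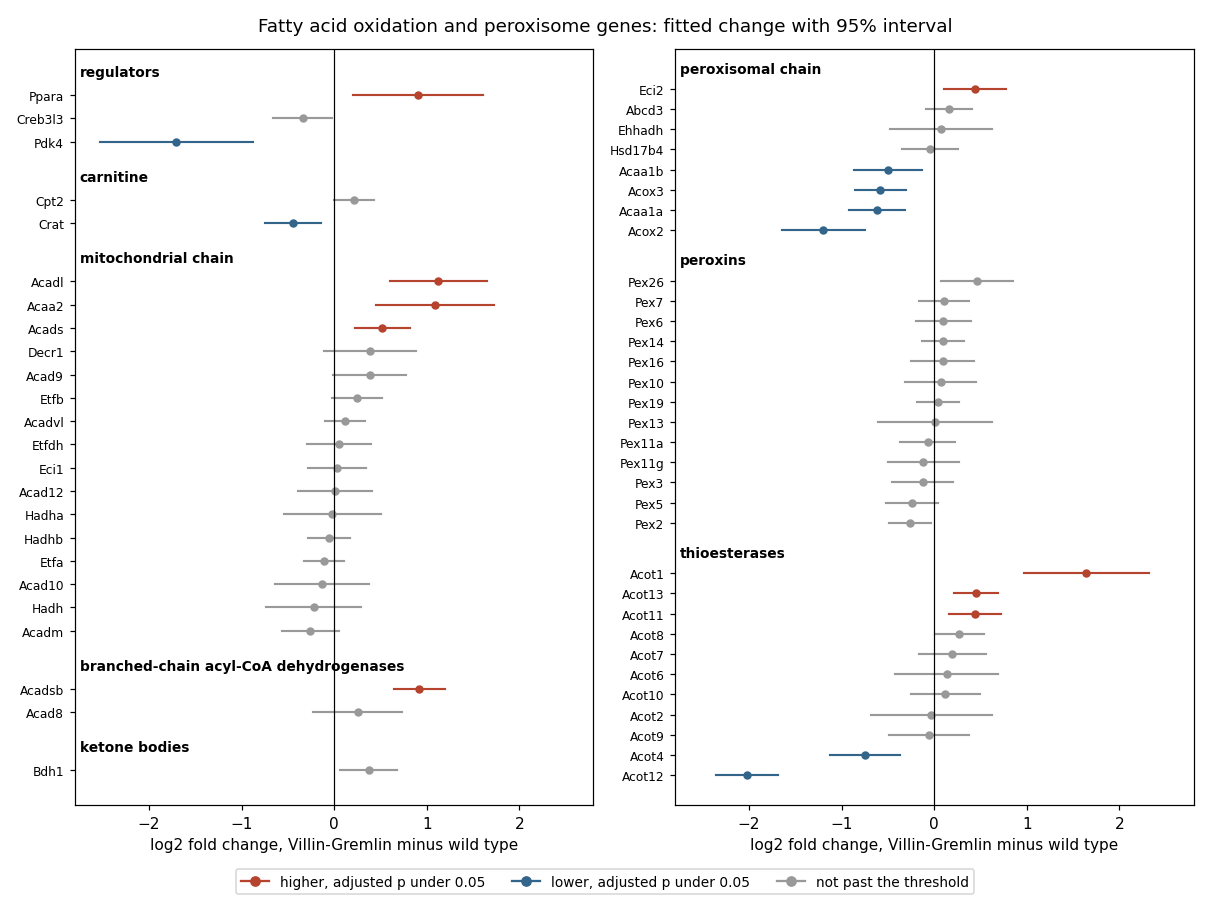
Fitted log2 fold change, Villin-Gremlin minus wild type, of all 56 measured members with its 95% interval (x axis), in role groups. Red marks members higher and blue members lower at an adjusted p under 0.05; all 13 peroxins, from -0.26 to 0.46, are grey, while the peroxisomal chain and the thioesterases hold red and blue members.

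By role, 3 of 16 measured genes of the mitochondrial chain rose (18.8%, near the 17.9% of all genes) and 0 fell. In the peroxisomal chain 1 of 8 rose and 4 fell. Among the thioesterases 3 of 11 rose and 2 fell, and among the 13 peroxins 0 passed. With median scaling 2 genes of the mitochondrial chain, 0 of the peroxisomal chain and 1 thioesterase were higher, and the counts of lower genes stayed the same. Differences between the shares of role groups were not tested. Without Villin-Gremlin 5 and wild type 1 the counts were 3 higher in the mitochondrial chain, 4 lower and 0 higher in the peroxisomal chain, 3 higher and 2 lower among thioesterases, and 0 among peroxins.

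**Figure D2:**
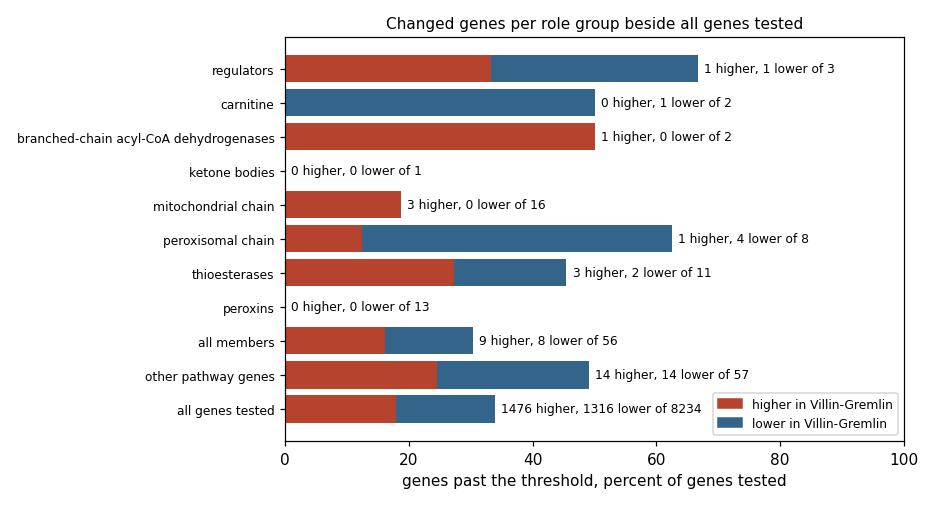
Percent of measured genes past the threshold (x axis) in each role group, in the other genes of the pathway and in all genes tested, with red for higher and blue for lower in Villin-Gremlin villi. Members as a whole sit at 17 of 56 and all genes at 2792 of 8234; groups of 1 to 3 genes move in large steps.

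Among regulators, Ppara, which encodes PPAR alpha, was higher and Pdk4, a classical target that curbs pyruvate oxidation in favour of fat, was lower. Ppara read 6.99, 7.61, 6.78, 7.95 and 7.59 (normalized log2 signal) on Villin-Gremlin arrays 1 to 5, against a lowest, median and highest of 5.62, 6.46 and 7.49 in wild type villi. The probe was dim, above background on 5 of 5 Villin-Gremlin and 4 of 6 wild type arrays, and the groups overlapped. The log2 fold change was 0.91 ± 0.33 (SE, limma adjusted p = 0.0461), or 0.38 (adjusted p = 0.0534) without background correction. Leaving out array 2, 4 or 5 of the Villin-Gremlin group ended the Ppara call (adjusted p = 0.0918, 0.112 and 0.0852), as did leaving out array 1, 2, 3 or 6 of the wild type group (0.0889, 0.0944, 0.0871 and 0.0522). Pdk4 read 7.03, 7.05, 7.21, 8.33 and 8.86 in Villin-Gremlin villi, against 8.77, 9.34 and 10.12 (lowest, median, highest) in wild type villi. Villin-Gremlin 5 alone reached the wild type range. Pdk4 was 3.26-fold lower (log2 fold change -1.70 ± 0.38 SE, limma adjusted p = 0.00423). Creb3l3, a membrane-bound transcription factor of fasting lipid metabolism, read 12.61, 12.52, 12.37, 12.63 and 12.92 in Villin-Gremlin villi and 12.77, 12.85 and 13.45 in wild type villi. Its change of -0.34 ± 0.15 (SE) missed the threshold (adjusted p = 0.0928). It passed without Villin-Gremlin 5 (-0.42, adjusted p = 0.0445).

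Of the carnitine enzymes, Crat, which moves acetyl groups between CoA and carnitine, fell modestly and Cpt2, the inner-membrane carnitine palmitoyltransferase, did not pass. Crat read 10.34, 10.24, 10.37, 10.33 and 9.996 in Villin-Gremlin villi, against 10.39, 10.76 and 10.96 (lowest, median, highest) in wild type villi. Every Villin-Gremlin array lay below every wild type array, by a narrow margin. The change was -0.45 ± 0.14 (log2, SE, limma adjusted p = 0.0253). The other kept Crat probes were dimmer, with means over all arrays of 7.35 and 6.76 beside 10.50 for the probe shown. They differed by -0.06 ± 0.29 and 0.03 ± 0.22 (SE), and the mean of the probes gave -0.16 (adjusted p = 0.531). Crat no longer passed when array 5 of the Villin-Gremlin group (adjusted p = 0.0555) or array 4, 5 or 6 of the wild type group (0.0565, 0.0511 and 0.0512) was left out. Cpt2 read 13.65, 13.58, 13.33, 13.60 and 13.42 in Villin-Gremlin villi and 13.21, 13.31 and 13.39 in wild type villi. Its difference was 0.21 (95% interval -0.01 to 0.44, adjusted p = 0.126).

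In the mitochondrial chain, the rises were those of Acadl, Acaa2 and Acads, 2 dehydrogenases and a thiolase. Acadl, the long-chain acyl-CoA dehydrogenase, read 11.36, 10.83, 11.47, 11.76 and 11.86 in Villin-Gremlin villi, against 9.61, 10.29 and 11.01 (lowest, median, highest) in wild type villi. It was 2.18-fold higher (log2 fold change 1.12 ± 0.24 SE, limma adjusted p = 0.00326), and among Villin-Gremlin arrays replicate 2 alone lay inside the wild type range. The other kept Acadl probes gave 0.92 and 0.96. Acaa2, the mitochondrial 3-ketoacyl-CoA thiolase, read 12.24, 12.66, 11.85, 12.53 and 12.40 in Villin-Gremlin villi and 10.06, 11.34 and 12.04 in wild type villi. It was 2.13-fold higher (1.09 ± 0.29, adjusted p = 0.0121). All 4 kept Acaa2 probes passed, at 0.96 to 1.17. Among wild type arrays, replicate 1 was the lowest and replicate 6 the highest for both genes. Acads, the short-chain dehydrogenase, read 10.18, 10.22, 10.74, 10.01 and 10.04 in Villin-Gremlin villi, all above the wild type highest of 9.84 (lowest 9.55, median 9.77). It rose 1.43-fold (0.52 ± 0.14, adjusted p = 0.0113), and median scaling gave 0.40 (adjusted p = 0.0909).

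The 13 mitochondrial members that did not pass include those for the common steps of the spiral. Acadm, the medium-chain dehydrogenase, read 13.13, 13.08, 12.48, 12.94 and 12.76 in Villin-Gremlin villi, against 12.83, 13.22 and 13.31 in wild type villi. Its difference was -0.26 (95% interval -0.57 to 0.05). Acadvl, for very long chains, differed by 0.12 (-0.10 to 0.34), with Villin-Gremlin arrays at 12.23, 12.13, 12.27, 12.20 and 12.18 and wild type arrays at 11.94, 12.08 and 12.26 (lowest, median, highest). For the trifunctional protein, Hadhb read 12.74, 12.84, 12.48, 12.59 and 12.69 in Villin-Gremlin villi and 12.66, 12.69 and 12.89 in wild type villi, a difference of -0.05 (-0.28 to 0.17). Its partner subunit Hadha, on a dim probe, read 7.11, 7.89, 7.55, 7.21 and 7.69 in Villin-Gremlin villi and 7.10, 7.25 and 8.27 in wild type villi, a difference of -0.02 (-0.54 to 0.50). The groups overlapped for all 4 genes, and each of the 4 intervals lay within a 2-fold change in either direction. The electron transfer flavoprotein genes Etfa and Etfb and its dehydrogenase Etfdh differed by -0.11, 0.24 and 0.06. The auxiliary enzymes of unsaturated chains, Decr1 and Eci1, differed by 0.38 and 0.03. The remaining members, Hadh, Acad9, Acad10 and Acad12, lay between -0.22 and 0.38. A second Hadh probe was lower by itself (-0.40 ± 0.12, adjusted p = 0.0237 over probes). Acad9, which also serves complex I assembly, passed only without wild type 5 (0.49, adjusted p = 0.0490).

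**Figure D3:**
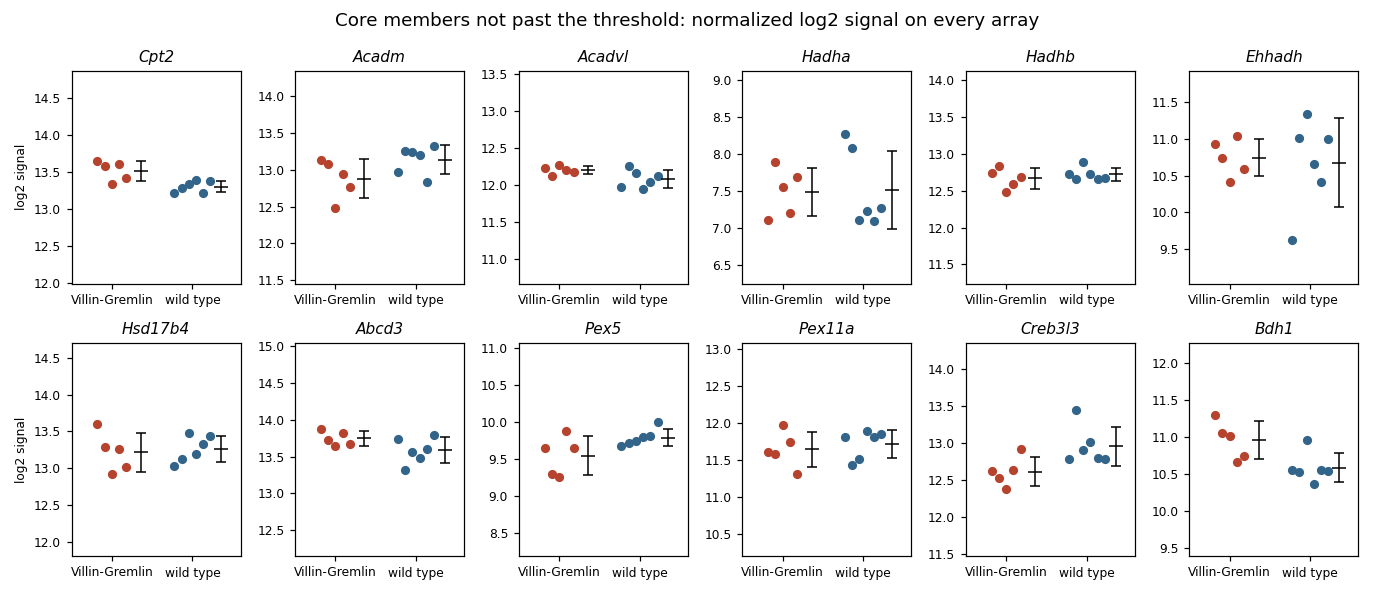
Normalized log2 signal (y axis, each panel with its own range) of 12 members that did not pass the threshold, on 5 Villin-Gremlin arrays (red) and 6 wild type arrays (blue); black marks are mean and SD. The groups overlap in each panel, and wild type 1 is the lowest array for Ehhadh at 9.62.

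Acadsb, which oxidises the branched acyl-CoA of isoleucine breakdown, rose clearly, with Villin-Gremlin arrays at 8.49, 8.85, 8.47, 9.03 and 8.68 and wild type arrays at 7.63, 7.80 and 7.94 (lowest, median, highest). The groups were apart by more than their spread (8.70 ± 0.24, n = 5, and 7.78 ± 0.13, SD, n = 6), a 1.89-fold difference (limma adjusted p = 1.70e-04). Its log2 fold change of 0.92 shrank to 0.61 when no background was corrected. Acad8, of valine breakdown, differed by 0.26 (adjusted p = 0.410). Bdh1, the ketone body enzyme 3-hydroxybutyrate dehydrogenase, read 11.30, 11.06, 11.02, 10.66 and 10.74 in Villin-Gremlin villi and 10.37, 10.54 and 10.95 in wild type villi. Its difference of 0.37 ± 0.14 (SE) missed the threshold (adjusted p = 0.0610). Bdh1 did pass on leaving out array 4 (0.45, adjusted p = 0.0375) or 5 (0.43, 0.0433) of the Villin-Gremlin group, or array 3 of the wild type group (0.45, 0.0275). With all arrays kept, it passed without background correction (0.34, adjusted p = 0.0408). It also passed with a trended and robust variance prior (0.37, 0.0453) and with sex, read from Y-linked genes, as a covariate (0.36, 0.0287).

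In the peroxisomal chain both measured oxidases and both thiolases were lower. Acox2, the oxidase of branched chains and bile acid intermediates, read 9.21, 8.75, 8.53, 9.23 and 9.20 in Villin-Gremlin villi, below the wild type lowest of 9.51 (median 10.34, highest 10.55). It was 2.30-fold lower (log2 fold change -1.20 ± 0.21 SE, limma adjusted p = 7.72e-04). Acox3, which also takes branched chains, read 9.99, 9.85, 10.02, 10.21 and 10.10 in Villin-Gremlin villi, against 10.30, 10.58 and 10.95 (lowest, median, highest) in wild type villi. It was 1.498-fold lower (-0.58 ± 0.13, adjusted p = 0.00359), again with no overlap. Acaa1a and Acaa1b encode close copies of the peroxisomal 3-ketoacyl-CoA thiolase, and their probes could share signal. Acaa1a read 13.84, 14.14, 13.84, 13.88 and 13.42 in Villin-Gremlin villi and 14.26, 14.40 and 14.73 in wild type villi (-0.62 ± 0.14, adjusted p = 0.00437). Acaa1b read 11.46, 11.16, 10.90, 11.57 and 11.03 in Villin-Gremlin villi and 11.15, 11.81 and 11.96 in wild type villi (-0.50 ± 0.17, adjusted p = 0.0362). Wild type 1 alone lay within the Villin-Gremlin range. Acaa1b no longer passed on leaving out array 2, 3 or 5 of the Villin-Gremlin group (adjusted p = 0.0696, 0.0925 and 0.0731) or any of arrays 2 to 6 of the wild type group (0.0667, 0.0745, 0.0671, 0.0576 and 0.0676).

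The bifunctional enzymes and the transporter of the same organelle did not pass, and their groups overlapped. Ehhadh, the bifunctional enzyme best known as a PPAR alpha target, read 10.92, 10.74, 10.41, 11.04 and 10.59 in Villin-Gremlin villi and 9.62, 10.83 and 11.33 in wild type villi. Its difference was 0.07 (95% interval -0.48 to 0.62), and -0.14 without wild type 1. Hsd17b4, the second bifunctional enzyme, read 13.60, 13.28, 12.92, 13.27 and 13.02 in Villin-Gremlin villi and 13.03, 13.26 and 13.48 in wild type villi (-0.05, -0.35 to 0.26). Abcd3, a transporter that brings acyl-CoA into peroxisomes, differed by 0.16 (-0.08 to 0.41). Eci2, an isomerase for unsaturated chains, was higher by 0.44 ± 0.16 (SE, limma adjusted p = 0.0448), at 10.90, 10.54, 10.89, 10.78 and 10.75 in Villin-Gremlin villi and 9.94, 10.34 and 10.69 in wild type villi. That call was lost in 13 of 23 alternatives, among them the authors' own log2 values (adjusted p = 0.0842). Leaving out Villin-Gremlin 1, 3, 4 or 5 (adjusted p = 0.0943, 0.0935, 0.0782 and 0.0626) or wild type 1, 2, 3 or 4 (0.0862, 0.0949, 0.0621 and 0.0782) also ended it.

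**Figure D4:**
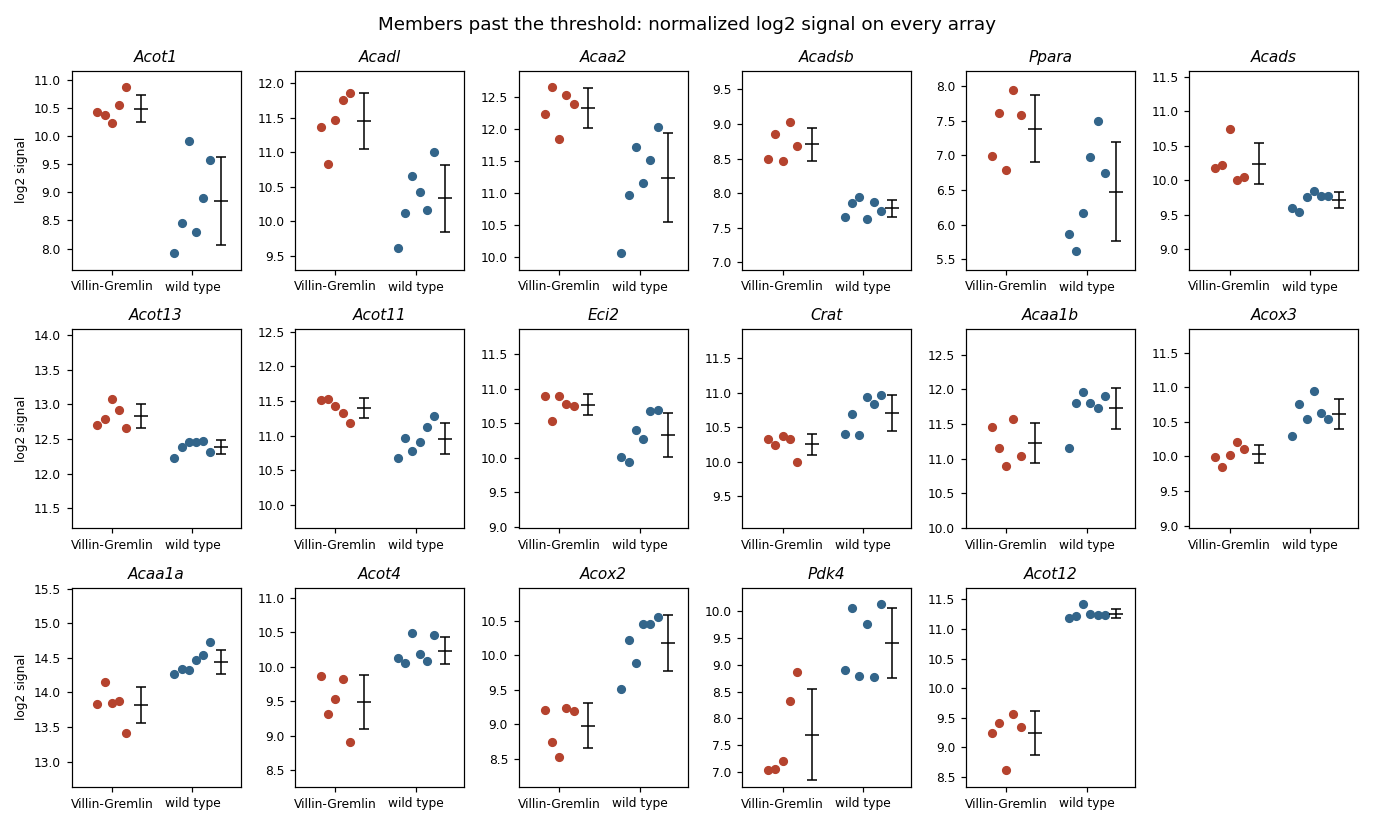
Normalized log2 signal (y axis, each panel with its own range) of the 17 members past the threshold, on 5 Villin-Gremlin arrays (red, left) and 6 wild type arrays (blue, right); black marks are mean and SD. Panels run from the largest rise, Acot1, to the largest fall, Acot12, whose wild type arrays lie between 11.19 and 11.42.

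Of the 13 measured peroxins, 0 passed the limma test. Their log2 fold changes ran from -0.26 (Pex2) to 0.46 (Pex26), and 2 had an unadjusted p under 0.05. Pex5, the receptor that recognises enzymes bound for the peroxisome, read 9.64, 9.29, 9.26, 9.88 and 9.64 in Villin-Gremlin villi and 9.67, 9.76 and 9.995 in wild type villi (-0.24, 95% interval -0.53 to 0.04). Pex11a, which drives peroxisome division and is induced by PPAR alpha, read 11.61, 11.58, 11.97, 11.75 and 11.32 in Villin-Gremlin villi and 11.44, 11.81 and 11.89 in wild type villi (-0.07, -0.37 to 0.23). All 4 kept Pex11a probes lay between -0.12 and -0.05. The membrane assembly genes Pex3, Pex16 and Pex19 differed by -0.13, 0.09 and 0.04, and the docking genes Pex13 and Pex14 by 0.01 and 0.10. Pex10 and Pex2, of the ring-finger complex that recycles the receptor, differed by 0.07 and -0.26, and the ATPase gene Pex6 and its anchor Pex26 by 0.10 and 0.46. Pex7, the receptor of a second class of cargo, and Pex11g, a relative of Pex11a, differed by 0.10 and -0.12. Pex2 passed on leaving out array 4 of the Villin-Gremlin group (-0.32, adjusted p = 0.0341) or the background correction (-0.24, 0.0370), and Pex26 on leaving out array 3 of the wild type group (0.53, 0.0467). Over the 13 peroxins the 95% intervals stayed between -0.61 and 0.85.

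Acyl-CoA thioesterases, which release free fatty acids or acetate from CoA, held both the largest fall and the largest rise among the members. Acot12, a cytosolic acetyl-CoA thioesterase, read 9.25, 9.42, 8.61, 9.57 and 9.35 in Villin-Gremlin villi, against 11.19, 11.24 and 11.42 (lowest, median, highest) in wild type villi. It was 4.06-fold lower (log2 fold change -2.02 ± 0.15 SE, limma adjusted p = 2.31e-06), the smallest adjusted p of any member. Acot1, a cytosolic long-chain thioesterase that PPAR alpha agonists induce in mouse liver, read 10.42, 10.37, 10.23, 10.55 and 10.86 in Villin-Gremlin villi and 7.92, 8.68 and 9.92 in wild type villi. It was 3.12-fold higher (1.64 ± 0.31, adjusted p = 0.00155), and wild type arrays spread far more (SD 0.77) than Villin-Gremlin arrays (SD 0.24). A second Acot1 probe gave 1.35. Acot4, a peroxisomal thioesterase of dicarboxylic and succinyl-CoA, read 9.86, 9.31, 9.53, 9.83 and 8.91 in Villin-Gremlin villi, all below the wild type lowest of 10.06 (median 10.16, highest 10.49). It was 1.68-fold lower (-0.75 ± 0.17, adjusted p = 0.00521).

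Acot1 and Acot4 are next to each other on chromosome 12, in a run of 6 family members with no other protein-coding gene starting between them (RefSeq order). The order is Acot2, Acot1, Acot4, Acot3, Acot5 and Acot6. Of this run, Acot1 rose, Acot4 fell, Acot2 and Acot6 were dim and differed by -0.03 and 0.14, and Acot3 and Acot5 were not measured. Acot1 and Acot2 are close copies, and their probes could share signal. The promoters of Acot1 and Acot4 are shown because these neighbours moved in opposite directions, and that of Acot12 because it fell most. Each line gives the 250 bases before the RefSeq transcript start (GRCm38.p6, 5′ to 3′ in the direction of the gene, plus strand in each case), at chr13:91741271-91741520 for Acot12, chr12:84038129-84038378 for Acot4 and chr12:84009252-84009501 for Acot1. Capitals mark AGGTCA, the core hexamer bound by nuclear receptors such as PPAR alpha, on either strand.
Acot12: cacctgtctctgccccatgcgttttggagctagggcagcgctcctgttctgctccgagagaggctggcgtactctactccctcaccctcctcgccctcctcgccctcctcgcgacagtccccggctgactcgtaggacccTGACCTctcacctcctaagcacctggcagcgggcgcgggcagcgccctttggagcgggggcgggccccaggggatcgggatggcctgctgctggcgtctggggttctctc
Acot4: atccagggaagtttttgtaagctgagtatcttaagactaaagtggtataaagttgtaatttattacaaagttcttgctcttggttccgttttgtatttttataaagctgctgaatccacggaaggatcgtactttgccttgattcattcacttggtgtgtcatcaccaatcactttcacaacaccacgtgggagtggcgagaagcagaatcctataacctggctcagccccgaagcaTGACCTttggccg
Acot1: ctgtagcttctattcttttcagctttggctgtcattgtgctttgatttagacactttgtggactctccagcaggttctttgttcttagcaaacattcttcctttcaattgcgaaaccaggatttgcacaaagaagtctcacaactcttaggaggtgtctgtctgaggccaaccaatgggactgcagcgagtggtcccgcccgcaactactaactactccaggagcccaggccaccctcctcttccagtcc
The hexamer had 1 match in the Acot12 stretch, 110 bases before the start, 1 in that of Acot4, 13 bases before it, and 0 in that of Acot1. Over the 300-base windows from 250 bases before to 50 after the start, 51 members matched the RefSeq table with 61 windows, of which 18% held AGGTCA on either strand, beside 16.3% of all 32851 windows. It was in windows of 0 of 7 members that rose, 2 of 7 that fell, 4 of 33 that did not pass and 3 of 4 that were not measured (Acot3, Acot5 and Cpt1a). The PPAR response element searched, 2 copies of AGGTCA in a row with any 1 base between them, was in 0 member windows and in 0.0396% of all windows. An exact match this rare was unlikely in any 61 windows, so its absence there says nothing about the members. GGCGCC, a palindrome bound by BMP-activated Smads, was in 13.1% of member windows and 11.9% of all windows, in 7 members. Of these Ppara and Acads rose, Acot12 fell, and Acad8, Etfdh, Pex16 and Pex5 did not pass. Each match is a description of these letters only.

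Further thioesterases rose by smaller amounts. Acot13, associated with mitochondria, read 12.71, 12.79, 13.07, 12.92 and 12.66 in Villin-Gremlin villi, all above the wild type highest of 12.47 (lowest 12.22, median 12.41). The change was 0.45 ± 0.11 (log2, SE, limma adjusted p = 0.00697). Acot11, a long-chain thioesterase first described in brown fat, read 11.51, 11.53, 11.43, 11.33 and 11.18 in Villin-Gremlin villi and 10.67, 10.93 and 11.28 in wild type villi (0.44 ± 0.13, adjusted p = 0.0183). With median scaling neither passed (0.32 and 0.31, adjusted p = 0.212 and 0.257). Acot8, the broad peroxisomal thioesterase, differed by 0.27 (95% interval 0.00 to 0.54, adjusted p = 0.110). Acot7, Acot10 and Acot9 differed by 0.20, 0.12 and -0.06.

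Other genes of the pathway were read from a list of 87 outside the members, of which 57 were measured. Of these 14 rose and 14 fell, 49.1% beside the 33.9% of all genes. With median scaling 22 passed. The list was chosen with earlier results of these data known, so its share is a description only. Among the rises, Slc25a17, the peroxisomal membrane carrier of CoA and related cofactors, read 10.45, 10.95, 10.17, 10.87 and 10.58 in Villin-Gremlin villi and 8.17, 8.69 and 9.05 (lowest, median, highest) in wild type villi, a 3.78-fold difference (limma adjusted p = 9.83e-06). Pccb, a propionyl-CoA carboxylase subunit downstream of odd and branched chains, was 3.71-fold higher (adjusted p = 4.00e-05). The partner subunit gene Pcca did not pass (0.48, 95% interval -0.08 to 1.05, adjusted p = 0.176), and its groups overlapped. Oxct1, which activates ketone bodies for oxidation, was 2.63-fold higher (adjusted p = 1.73e-04). The pyruvate dehydrogenase kinase genes divided: Pdk1 was 3.56-fold higher (adjusted p = 3.47e-06), while Pdk2 was 2.42-fold lower (adjusted p = 4.01e-04), on the side of Pdk4. Nr1h4, the bile acid receptor FXR, and Plin2, a lipid droplet coat protein, were 1.89 and 1.88-fold higher (adjusted p = 3.74e-04 and 0.00195).

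Among the falls, the fatty acid transport protein genes Slc27a4 and Slc27a2, which also activate fatty acids, were 3.497 and 2.21-fold lower (limma adjusted p = 3.15e-06 and 0.00523). Lipe, hormone-sensitive lipase, was 2.79-fold lower (-1.48, adjusted p = 1.27e-05), and -0.78 on the log2 scale without background correction. Ppargc1a, a coactivator of PPAR alpha and of mitochondrial genes, read 10.61, 10.85, 10.63, 11.08 and 9.19 in Villin-Gremlin villi, all below the wild type lowest of 11.14 (median 11.33, highest 11.87). Its change of -0.91 ± 0.28 (SE, adjusted p = 0.0238) lost its call without wild type 5 (adjusted p = 0.0501) and without the detection filter (0.0521). It was -0.59 without Villin-Gremlin 5. Cat, catalase of the peroxisomal matrix, read 11.06, 11.26, 9.93, 11.42 and 11.34 in Villin-Gremlin villi and 11.64, 11.89 and 12.14 in wild type villi (-0.90 ± 0.23, adjusted p = 0.0101).

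**Figure D5:**
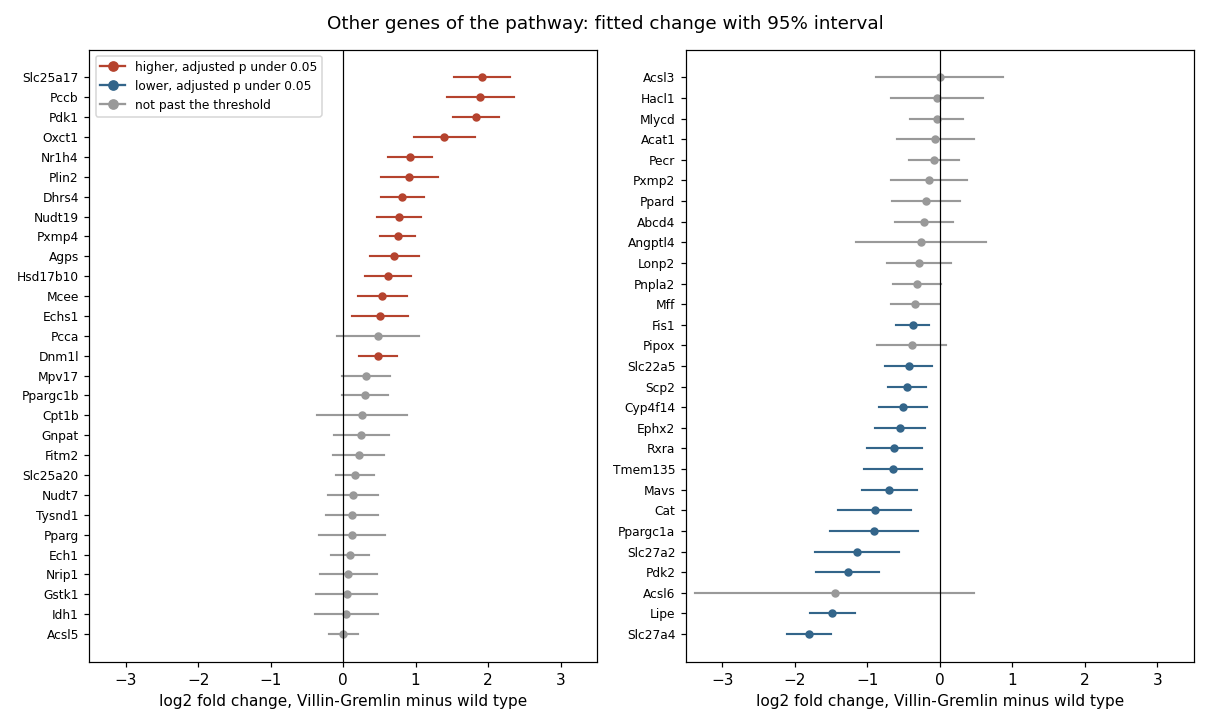
Fitted log2 fold change, Villin-Gremlin minus wild type, with its 95% interval (x axis), of 57 measured genes of fatty acid oxidation, PPAR alpha and the peroxisome outside the members. Red marks the 14 higher and blue the 14 lower at an adjusted p under 0.05; Slc25a17 leads the rises and Slc27a4 the falls.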

How the data were processed

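Isolated villi were profiled on 11 Illumina bead arrays, 5 Villin-Gremlin and 6 wild type. The deposited intensity of each probe is a mean bead signal without background correction, and the deposited detection p-value compares it with negative controls, per the file headers. The authors' deposited log2 values were an alternative; their making is not stated in those headers. Signals were corrected, quantile normalized and put on the log2 scale with neqc in limma 3.58.1 (R 4.3.3, offset 16). The filter required 5 arrays or more at a detection p below 0.01, which left 14203 of 45281 probes. Of all probes, 34885 carried 1 gene symbol, 18 several and 10378 none. The kept probe with the highest mean stood for its gene. A linear model gave Villin-Gremlin minus wild type, with Benjamini-Hochberg adjustment over 8234 genes and calls at an adjusted p under 0.05. The fit was tested on simulated data. Values on each array are given for members past the threshold and for a set of central members whatever their p, and other pathway genes are named when past it, at most 12 by size. Pcca is given in addition, beside its partner Pccb. Members and lists were chosen with earlier results of these data known. Alternatives were the background correction, offset, scaling, detection filter, probe rule, array weights, variance prior, replicate block, sex as a covariate, and leaving out arrays. Replicate numbers are those of the sample titles, and they gave no sign of pairing: deviations of arrays with the same number correlated at -0.20 to 0.11. The sample descriptions number the Villin-Gremlin arrays differently, and pairing by those numbers was not checked. Promoter windows are from RefSeq (GRCm38.p6). Precision is limited by the number of arrays.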

Additional observations from a re-analysis of the deposited data

Results flagged for a closer look

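In 7 of 76 groups examined, 1 array lay far from the others of its group, beside about 1 in 20 groups by chance. Among members, Acot12 was at 11.42 on wild type 3 (others 11.19 to 11.26), Acaa1b at 11.15 on wild type 1 (others 11.73 to 11.96), Hadhb at 12.89 on wild type 3 (others 12.66 to 12.72) and Creb3l3 at 13.45 on wild type 2 (others 12.77 to 13.02). Among other genes of the pathway, Ppargc1a was at 9.19 on Villin-Gremlin 5 (others 10.61 to 11.08), Cat at 9.93 on Villin-Gremlin 3 (others 11.06 to 11.42) and Oxct1 at 11.01 on wild type 1 (others 11.81 to 12.19). The cause was not tested.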

How the results depend on the processing

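Of the 17 changed members, 10 passed in all 23 alternatives; Ppara, Acaa1b, Crat, Eci2, Acads, Acot13 and Acot11 did not. Median scaling moved the median of all genes by -0.09 and left 13 changed members (5 higher), 1 higher thioesterase and 919 higher genes in all. The peroxisomal chain had 0 higher genes with median scaling, with the authors' log2 values, without the detection filter, with sex as a covariate and without Villin-Gremlin 5 and wild type 1. Without background correction 1 peroxin was lower. The replicate block used the title numbers, which leave wild type 6 without a partner and so drop it. With this block 15 members, 17 other pathway genes and 2236 genes in all changed, and Ppargc1a did not pass (limma adjusted p = 0.0782). Title numbers gave no sign of pairing, and a block by the numbers of the sample descriptions was not run. Leaving out 1 array gave 14 to 17 changed members (7 to 10 higher, 6 to 9 lower), 2383 to 2787 changed genes, 25 to 29 changed other pathway genes, 0 to 1 higher genes in the peroxisomal chain, and 0 to 1 higher and 0 to 1 lower peroxins. Small differences turned sign: Acadvl to -0.016 and Ehhadh to -0.074 with median scaling; Hadha to 0.082, Ehhadh to -0.10 and Pex11a to 0.028 without Villin-Gremlin 5 and wild type 1; and leaving out 1 array gave -0.12 to 0.13 for Hadha, -0.14 to 0.20 for Ehhadh and -0.15 to 0.010 for Pex11a. The cause was not tested. Dim probes such as those of Ppara and Acot2 were above background on some arrays only.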
